A study of Mus musculus with 6 samples.

Results

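The growth hormone and STAT5 axis was followed through 10 genes, picked by symbol for their known place in liver growth hormone signalling: Ghr, Jak2, Stat5a, Stat5b, Igf1, Igfals, Socs2, Cish, Bcl6 and Cux2. They are 10 of the 53599 gene symbols in the count table, and all 10 were among the 12691 genes with enough counts to be tested. RNA was sequenced from hepatocytes taken 4 days after mice received an adeno-associated virus of serotype AAV8. In the Sox4 group (3 libraries) the virus carried HA-Sox4-P2A-Cre, and in the empty vector group, EV (3 libraries), it carried Cre without Sox4. Both were driven by TBG, a promoter active in hepatocytes, so the controls also expressed Cre. The methods list an sgRNA backbone in the vector named EV as well. Per the study's methods the mice were male, on a C57BL/6J background and homozygous for Rosa-LSL-Cas9-EGFP, a cassette that Cre switches on, so both groups shared it, whereas the labels give the EV genotype as WT and the other as Sox4. Cells were released with liberase and enriched on Percoll. The study counts its RNA-seq replicates as animals, so each library is taken as a separate mouse. The methods give the age at injection only as a range of weeks, not for each mouse. Time of day and feeding state at harvest are not given in the sources used here. The study reports that mice given the Sox4 virus lost weight, with the lowest point later than the harvest day used here.

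Growth hormone from the pituitary binds its receptor GHR on hepatocytes, which activates the bound kinase JAK2. JAK2 phosphorylates STAT5A and STAT5B, which enter the nucleus and switch on genes such as Igf1, the main source of circulating insulin-like growth factor, and the inhibitors Socs2 and Cish, which damp the same signal. The secretion pattern of the hormone, pulsed in males and nearly continuous in females, sets much of the difference in gene expression between male and female liver, with BCL6 and CUX2 acting as male-biased and female-biased repressors.

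The libraries held 15090629 to 16964860 counts, and Sox4 had 0 to 3 counts in EV and 11816 to 21697 in the Sox4 libraries, as labelled. Of 12691 genes tested, 55.1% passed an adjusted p of 0.05 (edgeR quasi-likelihood F test, Benjamini-Hochberg over all genes), 29.0% higher and 26.0% lower in Sox4, so a call in these data is common. The scaling matters as well. With TMM, which assumes that most genes do not change, the median log2 fold change of all genes was 0.041, and with library size alone it was 0.51, a shift of 0.469. Changes below are on the TMM scale, and a call that does not hold with library size alone is named. Hepatocyte markers were abundant in every library (119768 to 142857 CPM, counts per 1e06 on TMM-scaled libraries, summed over 8 genes in EV, 80262 to 91927 in Sox4), and 6 of the 8 were lower in Sox4. Marker genes of other liver cell types had low levels, and the cells they came from were not tested. The summed Kupffer markers were 13.02 to 27.7 CPM in EV and 26.7 to 61.6 in Sox4, stellate markers 8.40 to 44.7 and 76.7 to 137 CPM (without Reln, which held most of that sum, 1.31 to 7.12 and 6.52 to 25.9 CPM, which overlap), cholangiocyte markers 10.02 to 21.9 and 48.5 to 59.0 CPM, and endothelial markers 13.9 to 20.7 and 10.8 to 25.1 CPM. Lymphoid markers summed to at most 3.73 CPM, with Ms4a1 at 0 in all libraries, and Krt7 and Krt19 were at 0 in EV. In bulk RNA, fewer cells of a type and less RNA per cell cannot be told apart.

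Of the 10 genes, 7 passed the threshold, 3 higher (Jak2, Cish and Cux2) and 4 lower (Ghr, Stat5b, Igf1 and Igfals), a share to be read against 55.1% of all genes. With library size alone, which called 63.8% of all genes, the split was 4 higher and 2 lower. The groups did not overlap for the same 7 genes, and over all genes tested this was so for 63.0%, with 33.1% higher and 29.9% lower. The receptor, the main STAT5 and both IGF genes were lower, the kinase and a feedback inhibitor were higher, and the female-biased repressor Cux2 appeared from the detection floor. Cux2 entered the test only through the Sox4 libraries, which fixes its direction. Stat5a, Socs2 and Bcl6 did not pass.

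**Figure D1:**
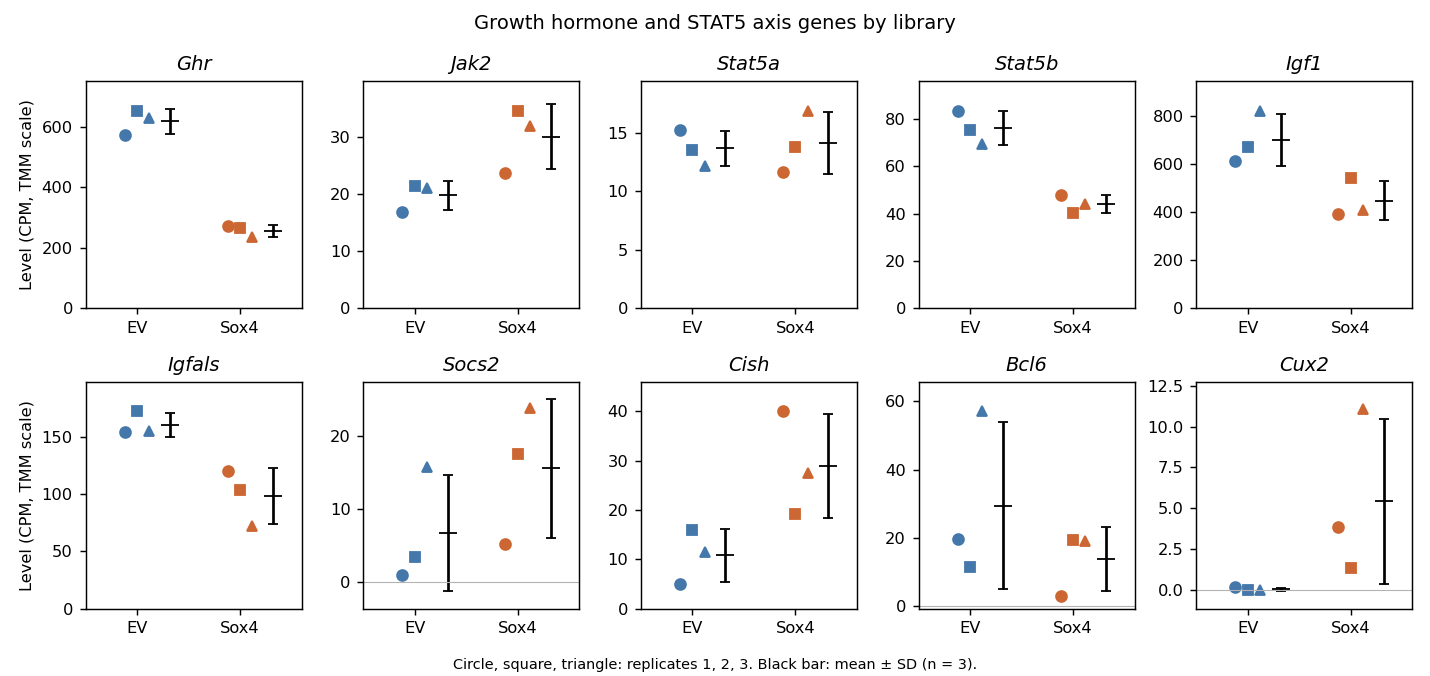
Level of each of the 10 genes in CPM (counts per 1e06 of the TMM-scaled library, linear axes) in the 3 EV and 3 Sox4 libraries, with mean ± SD in black. Ghr, Stat5b, Igf1 and Igfals lie lower in every Sox4 library than in any EV library, whereas Socs2 and Bcl6 overlap between groups and vary widely within them.

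The receptor gene Ghr changed most clearly. Its counts were 7419, 8607 and 8665 in EV 1 to 3 and 5409, 5157 and 4622 in Sox4 1 to 3. All Sox4 libraries were below all EV libraries, with little spread in either group. The mean level was 618 ± 42.0 CPM in EV and 256 ± 19.5 CPM in Sox4 (SD, n = 3), a log2 fold change of -1.27 (SE 0.09, edgeR adjusted p = 3.59e-05). The 95% interval by limma-trend ran from -1.55 to -0.996, and the change was past the threshold in all 14 alternatives tried. On chromosome 15, Ghr shared no 50-base stretch with another annotated gene.

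Jak2, the tyrosine kinase carried by the receptor, moved the other way. It had 218, 281 and 290 counts in EV and 472, 676 and 627 in Sox4, or 19.7 ± 2.54 and 30.0 ± 5.65 CPM. The Sox4 libraries were all above the EV libraries. The log2 fold change was 0.60 (SE 0.20, edgeR adjusted p = 0.0125), and the call did not hold without EV 1 (edgeR adjusted p = 0.0547) or without Sox4 2 (edgeR adjusted p = 0.0567). Over 14 alternatives the adjusted p lay between 2e-04 and 0.0567.

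The STAT5 genes are neighbours on chromosome 11 and differed in their response. Stat5b, the form that dominates in liver, had 1085, 993 and 957 counts in EV and 953, 786 and 867 in Sox4. On the scaled libraries this was 83.6, 75.4 and 69.5 CPM against 47.8, 40.1 and 43.9 CPM, with no overlap, and a log2 fold change of -0.79 (SE 0.11, edgeR adjusted p = 3.47e-04). Stat5a had 198, 179 and 168 counts in EV and 233, 271 and 334 in Sox4, or 13.7 ± 1.53 and 14.1 ± 2.64 CPM, and the groups overlapped. Its log2 fold change was 0.05 (SE 0.18, edgeR adjusted p = 0.831), with a limma-trend 95% interval from -0.35 to 0.42. With library size alone Stat5a was higher at 0.52 (edgeR adjusted p = 0.0268, range over alternatives 0.0268 to 0.922), close to the shift of all genes. Near-identical stretches limit how well these genes are told apart: 8.21% of the 50-base stretches of Stat5a also occur in Stat5b, and 10.98% of those of Stat5b in Stat5a. Stat5a also overlaps Stat3 by 72 bases.

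A ratio within a library does not depend on the scaling. The log2 ratio of Stat5a to Stat5b counts was -2.45, -2.47 and -2.51 in EV and -2.03, -1.53 and -1.37 in Sox4. It was higher by 0.83 in Sox4 without overlap, at the smallest p that 3 against 3 libraries allow (exact permutation test, two-sided, p = 0.1, Benjamini-Hochberg 0.25 over 5 ratios). Stat5b therefore held a smaller part of the STAT5 counts in each Sox4 library than in any EV library.

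**Figure D2:**
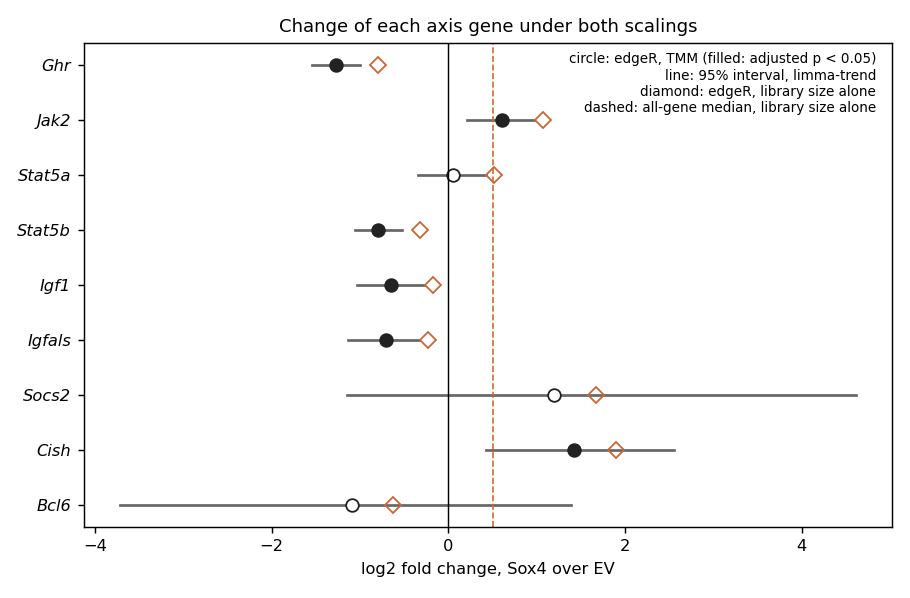
Log2 fold change of Sox4 over EV for 9 of the genes (Cux2 is left out, because EV was at the floor), with circles for TMM scaling, lines for limma-trend 95% intervals, diamonds for library size alone and a dashed line at the all-gene median under library size alone. Diamonds lie to the right of circles for every gene, and the intervals of Socs2 and Bcl6 are the widest of the 9.

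The endocrine outputs of the axis were lower. Igf1 encodes the growth factor itself, and its counts were 7967, 8850 and 11350 in EV and 7835, 10603 and 8115 in Sox4. These raw counts overlap, but on scaled libraries the levels were 614, 672 and 824 CPM in EV and 393, 542 and 411 CPM in Sox4, which do not. This was a log2 fold change of -0.65 (SE 0.19, edgeR adjusted p = 0.0099). With library size alone it was -0.18 and did not pass (edgeR adjusted p = 0.381, range over alternatives 4.58e-04 to 0.381), so the Igf1 call rests on the TMM scale.

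Igfals encodes the acid-labile subunit, which holds IGF1 and IGFBP3 in a stable complex in blood. It had 2008, 2275 and 2137 counts in EV and 2404, 2031 and 1421 in Sox4, or 161 ± 10.3 and 98.7 ± 24.6 CPM. The scaled groups did not overlap, and the Sox4 libraries were more spread than the EV libraries. The log2 fold change was -0.70 (SE 0.23, edgeR adjusted p = 0.0072) and, as for Igf1, it did not pass with library size alone (-0.23, edgeR adjusted p = 0.264, range over alternatives 1.84e-05 to 0.264). Relative to the receptor, Igf1 was less reduced. The log2 ratio of Igf1 to Ghr was 0.10, 0.04 and 0.39 in EV and 0.53, 1.04 and 0.81 in Sox4, a difference of 0.62 without overlap (exact permutation p = 0.1, the smallest possible, Benjamini-Hochberg 0.25). The ratio of Igfals to Igf1 overlapped between groups and differed by -0.08 (exact permutation p = 0.9).

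Promoters were read for sequence that STAT5 is known to bind. RefSeq start sites on GRCm38.p6 gave 16 windows, from 250 bases before to 50 after the start, for 9 of the 10 genes. The STAT5 motif TTCNNNGAA, which reads the same on both strands, was in 5 of the 16 windows and in 3 of the 9 genes (Igfals, Cish and Bcl6), against 8.3% of 32851 windows and 9.55% of 27025 genes in RefSeq. The SOX motif AACAAAG, searched on both strands, was in 1 member window, that of Cux2, against 5.85% of all windows, and no member window held both motifs. A match is only a match of letters. The Igfals window with a match closest to the start is shown in full, with the motif in capitals beginning 58 bases before the start.
Igfals, chr17:24877981-24878280, plus strand: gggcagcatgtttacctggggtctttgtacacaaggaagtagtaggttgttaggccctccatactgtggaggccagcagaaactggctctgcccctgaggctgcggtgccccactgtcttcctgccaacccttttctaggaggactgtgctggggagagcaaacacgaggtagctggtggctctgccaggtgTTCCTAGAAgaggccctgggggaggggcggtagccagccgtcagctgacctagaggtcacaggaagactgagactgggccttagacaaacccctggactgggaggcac

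Cish encodes CIS, a SOCS-family protein that binds the activated receptor and blocks STAT5 docking. Its window held a pair of matches in tandem, the first beginning at the annotated start and the second 11 bases further, both in capitals.
Cish, chr9:107296409-107296708, plus strand: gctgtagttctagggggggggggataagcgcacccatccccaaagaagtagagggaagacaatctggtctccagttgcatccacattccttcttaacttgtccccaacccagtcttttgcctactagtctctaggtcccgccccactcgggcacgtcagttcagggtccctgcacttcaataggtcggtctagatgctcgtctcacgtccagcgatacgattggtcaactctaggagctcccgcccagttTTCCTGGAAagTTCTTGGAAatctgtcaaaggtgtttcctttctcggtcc
Cish had 66, 209 and 158 counts in EV and 799, 375 and 544 in Sox4, or 5.09, 15.9 and 11.5 CPM against 40.0, 19.2 and 27.6 CPM. The lowest Sox4 library was above the highest EV library, though not by far, and Cish rose by 1.42 on the log2 scale (SE 0.57, edgeR adjusted p = 0.028). The call did not hold without EV 3 (edgeR adjusted p = 0.0908), without Sox4 1 (edgeR adjusted p = 0.109) or without Sox4 3 (edgeR adjusted p = 0.0613), nor with no filter on low counts (edgeR adjusted p = 0.128), and over 14 alternatives the adjusted p ran from 2.89e-04 to 0.192. The antisense genes Gm17040 and Gm17041 overlap Cish over 740 bases, and without a stated strand setting their reads cannot be told apart from its own.

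Socs2 encodes a second SOCS-family protein, which removes the receptor and whose loss in mice gives overgrowth. It had 13, 45 and 218 counts in EV and 106, 344 and 472 in Sox4, or 1.002, 3.42 and 15.8 CPM against 5.31, 17.6 and 23.9 CPM. EV 3 lay above Sox4 1, so the groups overlapped. The log2 fold change was 1.20 (SE 1.29, edgeR adjusted p = 0.368), and the limma-trend 95% interval from -1.15 to 4.61 leaves both a fall and a large rise possible. Without EV 3 the log2 fold change was 2.80 (edgeR adjusted p = 0.0598, range over alternatives 0.0288 to 0.649). Socs2 shared 4.19% of its 50-base stretches with Gm9847. The log2 ratio of Socs2 to Ghr was higher by 3.04 in Sox4 with overlap (exact permutation p = 0.2), and that of Cish to Socs2 differed by -0.27 (exact permutation p = 1).

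The spread of Socs2 among EV libraries was itself unusual. Its highest EV level was 15.8-fold the lowest, a range above that of 99.56% of the 9025 genes that averaged 100 counts or more, whose median range was 1.21-fold. Cish (3.12-fold, percentile 98.56) and Bcl6 (4.99-fold, percentile 99.24) also varied widely, whereas Ghr (1.14-fold), Igfals (1.12-fold), Stat5b (1.20-fold), Jak2 (1.27-fold) and Igf1 (1.34-fold) did not exceed the 95th percentile of 1.86-fold. In Sox4 libraries the ranges were 4.50-fold for Socs2, 2.09-fold for Cish and 6.45-fold for Bcl6. These 3 hormone-responsive genes did not rank the libraries alike, since EV 1 was lowest for Socs2 and Cish and EV 2 for Bcl6, while Sox4 1 was lowest for Socs2 and Bcl6 and highest for Cish.

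**Figure D3:**
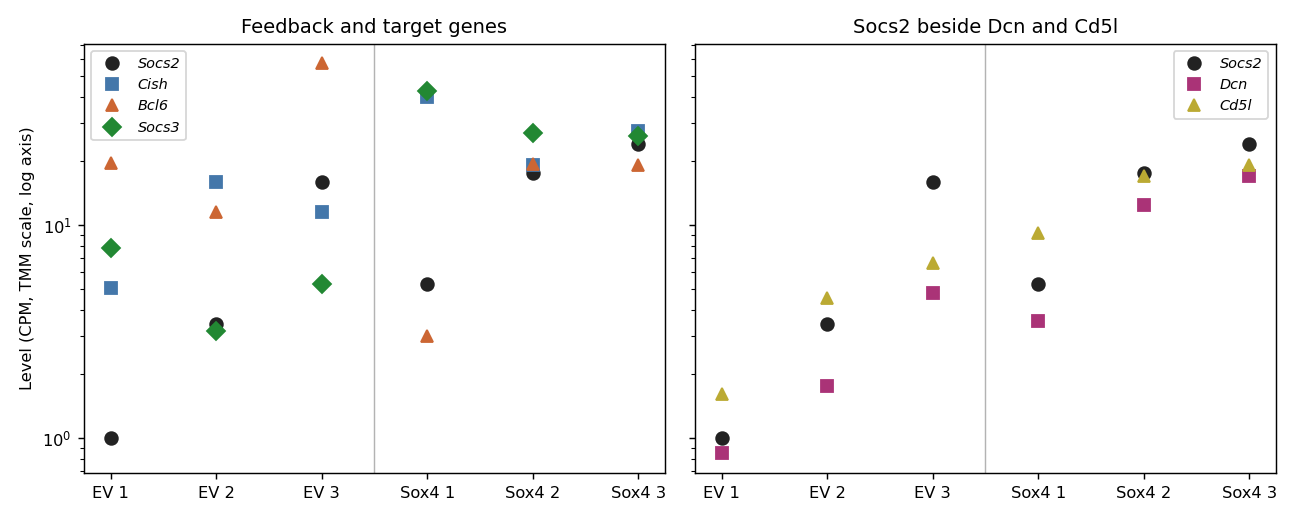
Level in CPM (log axis) in each library of Socs2, Cish, Bcl6 and Socs3 (left) and of Socs2 beside Dcn and Cd5l (right). Socs3 separates the groups clearly, and Bcl6 is highest in EV 3 and lowest in Sox4 1. Dcn and Cd5l, picked for profiles near that of Socs2, rank the libraries of each group as Socs2 does.

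The genes nearest to Socs2 in profile, by the root mean square difference of log2 CPM centred on the EV mean over 6 libraries, were Dcn (0.53), Cd5l (0.69) and Pfkfb3 (0.86). Dcn is a stellate cell and fibroblast gene, and it had 11, 23 and 66 counts in EV and 71, 243 and 335 in Sox4 (edgeR adjusted p = 0.0504). Cd5l is a Kupffer cell gene, and it had 21, 60 and 91 counts in EV and 182, 333 and 376 in Sox4 (edgeR adjusted p = 0.0129). Both were lowest in EV 1 and highest in EV 3 among controls, and lowest in Sox4 1 and highest in Sox4 3 in the other group. This is the order of Socs2 itself, which picking genes by nearness to its profile favours. Of the Kupffer markers 3 of 8 were called higher, and of the stellate markers 2 of 3 tested, where 29.0% of all genes were. Reln, the most abundant of the stellate markers, did not follow Socs2 in the Sox4 libraries (126, 117 and 50.8 CPM in Sox4 1 to 3). The part of other cells in the Socs2 values was not tested. For Ghr the nearest profiles were Serpina1b (0.064), Cyb5d2 (0.081) and Dhrs11 (0.088), and for Igf1 they were Sppl2a (0.039), Rnf139 (0.046) and Nr1d1 (0.054). Serpina1b belongs to a family of near-identical genes, so its counts are uncertain.

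The last members are transcription factors of sex-biased expression. Bcl6 represses female-biased genes in male liver and competes with STAT5 for the same DNA. Of its annotated starts, the one shown held 3 STAT5 motifs, in capitals, beginning 168, 122 and 88 bases before the start.
Bcl6, chr16:23981234-23981533, minus strand: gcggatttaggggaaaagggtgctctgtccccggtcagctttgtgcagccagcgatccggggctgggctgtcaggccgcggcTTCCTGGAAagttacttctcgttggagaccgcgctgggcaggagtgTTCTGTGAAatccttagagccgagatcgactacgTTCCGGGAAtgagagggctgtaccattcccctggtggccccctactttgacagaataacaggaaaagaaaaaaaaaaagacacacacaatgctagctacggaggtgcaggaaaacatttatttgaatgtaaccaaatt
Bcl6 had 254, 151 and 788 counts in EV and 60, 380 and 376 in Sox4, or 19.6, 11.5 and 57.2 CPM against 3.01, 19.4 and 19.1 CPM. The groups overlapped, with EV 3 far above the rest and Sox4 1 far below. The log2 fold change was -1.09 (SE 1.11, edgeR adjusted p = 0.357) with a limma-trend 95% interval from -3.71 to 1.39, and without EV 3 it was -0.18.

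Cux2, the repressor normally found in female liver, had 2, 0 and 0 counts in EV and 77, 26 and 219 in Sox4. No EV library exceeded the floor of 3 counts, and each Sox4 library did, by very different amounts (3.86, 1.33 and 11.1 CPM). The Sox4 mean of 5.43 ± 5.07 CPM was at least 24.1-fold higher than the mean floor of the EV libraries (edgeR adjusted p = 0.0031), and at least 11.5-fold higher without Sox4 3. The call held in all 14 alternatives, but Cux2 entered the main test only through the Sox4 libraries. This fixes its direction, so the p and the alternatives add no support for that direction. The Sox4 level was still low beside the other members.

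Per kilobase of annotated exons, the order of levels in EV was Igf1 (71.0 ± 10.97 CPM per kb), Ghr (68.3 ± 4.64), Igfals (50.8 ± 3.24), Stat5b (13.8 ± 1.28), Bcl6 (4.39 ± 3.64), Jak2 (3.92 ± 0.51), Stat5a (1.92 ± 0.21), Cish (1.68 ± 0.84), Socs2 (0.71 ± 0.83) and Cux2 (0.0051). Libraries of Igf1 and Ghr overlapped, as did those of Bcl6 with Jak2, Stat5a and Cish, and those of Cish with Stat5a and Socs2. In Sox4 the order was Igf1 (45.3 ± 8.19), Igfals (31.2 ± 7.78), Ghr (28.3 ± 2.15), Stat5b (7.93 ± 0.69), Jak2 (5.96 ± 1.12), Cish (4.51 ± 1.64), Bcl6 (2.06 ± 1.40), Stat5a (1.98 ± 0.37), Socs2 (1.64 ± 0.99) and Cux2 (0.54 ± 0.50). Ghr went from level with Igf1 to below it in each Sox4 library. Igfals and Ghr overlapped in Sox4, as did Jak2 and Cish, and Bcl6, Stat5a and Socs2. Cux2 overlapped Socs2 and Bcl6. The transcribed share of the annotated exons is not known, so the order between genes is approximate.

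**Figure D4:**
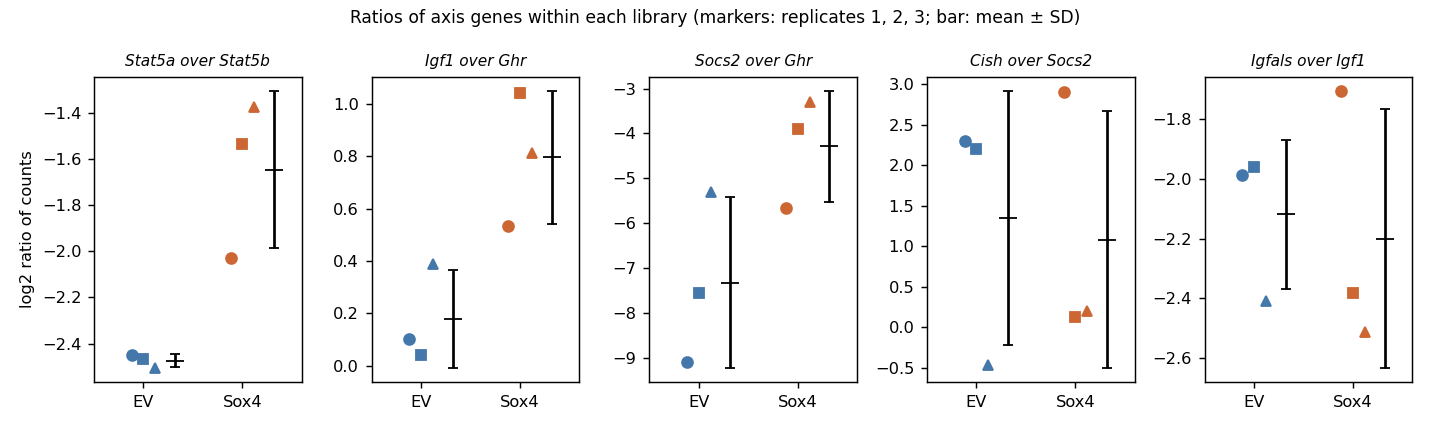
Log2 ratio of counts of gene pairs within each library, with mean ± SD (n = 3), each panel on its own axis. Stat5a over Stat5b and Igf1 over Ghr are higher in all 3 Sox4 libraries than in any EV library, and the other ratios overlap.

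Among other kinases and STATs, 3 of 10 tested genes rose and 4 fell, with a median log2 fold change of -0.24 (0.041 for all genes). Src, a kinase that GHR can also engage, had 51, 41 and 51 counts in EV and 908, 706 and 548 in Sox4, a log2 fold change of 3.34 (SE 0.23, edgeR adjusted p = 2.48e-06). Stat6, which carries the interleukin-4 signal, fell by 0.91 (edgeR adjusted p = 6.52e-05) and Lyn, a SRC-family kinase, by 0.86 (edgeR adjusted p = 4.76e-04). Stat3, the target of interleukin-6, rose by 0.36 (edgeR adjusted p = 0.0359), a call lost without any 1 of EV 1, EV 2, EV 3, Sox4 1 or Sox4 2.

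Of 15 negative regulators, 6 rose and 2 fell, and the median was 0.52. With library size alone, 10 rose and 1 fell. Socs3, the inhibitor induced by interleukin-6 and by growth hormone, had 101, 42 and 73 counts in EV and 847, 528 and 515 in Sox4, without overlap (log2 fold change 2.55, SE 0.43, edgeR adjusted p = 1.94e-04). Socs6 rose by 0.86 (edgeR adjusted p = 3.19e-04). Sh2b3, an adaptor that restrains JAK2, fell by 1.42 (edgeR adjusted p = 6.02e-05), and the phosphatase gene Ptpn6 fell by 0.54 (edgeR adjusted p = 0.0137, with library size alone 0.725, without Sox4 2 0.0578, range 0.0082 to 0.725). Socs1 had at most 4 counts in EV and 6 in Sox4, and was not tested.

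Of 10 adaptors, 2 rose and none fell, with a median of 0.08, and with library size alone 8 rose. These were Irs1 (1.21, edgeR adjusted p = 2.01e-04), the insulin receptor substrate, and Pik3r1 (0.35, edgeR adjusted p = 0.0357), a PI3-kinase subunit. Pik3r1 failed without EV 1, EV 3, Sox4 2 or Sox4 3, which left 1 adaptor called. Of 8 tested IGF binding proteins and receptors, 3 rose and 3 fell, and the median was 0.77, and with library size alone 4 rose and 1 fell. Igf2r, which clears IGF2 to lysosomes, rose by 1.82 (edgeR adjusted p = 2.69e-06). Igfbp2 rose by 0.84 (edgeR adjusted p = 0.0111). Igfbp4 fell by 0.70 (edgeR adjusted p = 0.0018) and Insr, the insulin receptor, by 0.52 (edgeR adjusted p = 0.0037), and neither passed with library size alone. Igfbp1, induced in fasting, gave 0.94 (edgeR adjusted p = 0.162) and Igfbp3 gave 0.76 (edgeR adjusted p = 0.41). Igf1r had at most 14 counts in any library and was not tested.

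Of 9 other receptors that signal through JAKs, 3 rose and 4 fell, with a median of 0.02. The count past the threshold was 3 without EV 2 and 4 without Sox4 2, and with library size alone 3 rose and 2 fell. Lifr, the receptor for leukaemia inhibitory factor, fell by 1.75 (edgeR adjusted p = 1.32e-04) and Il6ra, the interleukin-6 receptor, by 1.357 (edgeR adjusted p = 0.001). Prlr, the prolactin receptor and the closest relative of Ghr in the list, fell by 0.60 (edgeR adjusted p = 0.0117), but not past the threshold with library size alone (0.505), without EV 2 (0.0533) or without Sox4 2 (0.053), with a range of 3.09e-04 to 0.505 over alternatives. Ifngr1 rose by 1.03 (edgeR adjusted p = 5.3e-04). Ifngr2 rose by 0.39 (edgeR adjusted p = 0.024), a call that held with all libraries but not without EV 1, EV 2, EV 3, Sox4 2 or Sox4 3.

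**Figure D5:**
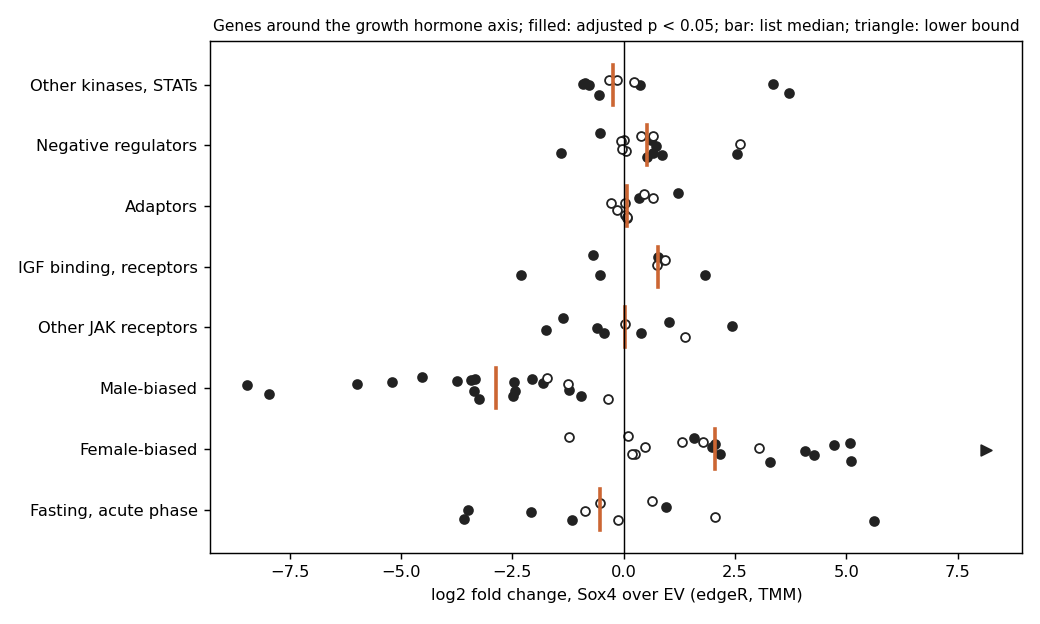
Log2 fold change of Sox4 over EV for the tested genes of 8 lists, one point a gene, filled where the edgeR adjusted p is under 0.05, with the list median as a bar and a triangle for a lower bound. Male-biased genes lie to the left of 0 and most female-biased genes to the right, while the other lists scatter on both sides.

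Genes whose liver expression follows the hormone's sex pattern were listed from background knowledge, but with earlier results of these data known. The libraries matched the stated male sex, with at most 3 counts of Xist and 862 to 1789 of the Y-linked Ddx3y. Of 20 tested male-biased genes, 17 fell, none rose, and the median log2 fold change was -2.87. Of 28 female-biased genes listed, 19 had enough counts to be tested. Of these 11 rose, none fell, and the median was 2.05. A gene near the floor in 1 group enters the test only through the other, which fixes its direction. Among the genes that entered in this way were Prom1 and A1bg (4, 2 and 0 counts in EV, 18, 16 and 215 in Sox4). Slc22a27 did so too (0, 6 and 5 counts in EV, 141, 125 and 312 in Sox4). Over all genes 26.0% fell and 29.0% rose. The 8 hepatocyte markers, not picked for sex bias, also went down, 6 lower and none higher, with a median of -1.58. With library size alone 14 male-biased genes fell and 12 female-biased genes rose. Elovl3, a fatty acid elongase, had 4668, 1564 and 1110 counts in EV and 21, 10 and 0 in Sox4, and Hsd3b5, a steroid dehydrogenase, had 2848, 2905 and 5089 against 43, 21 and 0. They fell by 8.46 (SE 1.17, edgeR adjusted p = 0.0017) and 7.96 (SE 1.31, edgeR adjusted p = 4.99e-04). With 0 counts in Sox4 3, both entered the test only through EV, which fixes their direction. Egfr, the epidermal growth factor receptor, had 5026, 7598 and 21385 counts in EV and 1756, 5573 and 1859 in Sox4, and fell by 2.43 (edgeR adjusted p = 0.0402). That call failed in 7 of 14 alternatives, among them library size alone (0.0651) and leaving out EV 2, EV 3, Sox4 1 or Sox4 3, with adjusted p between 0.0067 and 0.16, and EV 3 is the library in which Bcl6 and Socs2 were also highest among controls.

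Among female-biased genes, Prom1, which also marks bile duct cells, had 1, 2 and 1 counts in EV and 1258, 1167 and 1316 in Sox4. Its level was at least 279.8-fold higher than the floor (edgeR adjusted p = 2.94e-08). Ntrk2, a neurotrophin receptor, had 98, 7 and 16 counts in EV and 2564, 1963 and 1642 in Sox4, a log2 fold change of 5.09 (edgeR adjusted p = 0.0042). The cytochrome P450, Mup and Serpina1 genes in these lists have near-identical copies and are uncertain one by one. The P450 gene Cyp2a4 was among the others of this list that rose (log2 fold change 4.07, edgeR adjusted p = 0.0371), and some members did not pass. The Cyp2b9 counts were 34, 723 and 132 in EV and 2665, 2636 and 5651 in Sox4 (edgeR adjusted p = 0.0738), and Cyp17a1 gave -1.23 (edgeR adjusted p = 0.142). Cyp3a16, Cyp3a41a and Cyp3a41b were at 0 counts in all libraries and were not tested. These P450 genes were picked after their values were seen.

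Fasting and inflammation are known to lower hepatic growth hormone signalling, and 11 genes of these states were tested. In this list 2 rose and 4 fell, where 29.0% of all genes rose and 26.0% fell, and the median was -0.53. Fgf21, a fasting hormone gene that blunts STAT5 signalling, had 5, 2 and 6 counts in EV and 98, 274 and 603 in Sox4 (log2 fold change 5.63, SE 0.82, edgeR adjusted p = 0.0022), with no overlap. Fgf21 entered the test only through the Sox4 libraries, which fixes its direction. It did not pass with limma-voom (adjusted p = 0.0864, range over alternatives 3.36e-09 to 0.0864). The acute phase genes Saa1, with 749, 565 and 417 counts in EV and 152, 59 and 18 in Sox4, and Hp fell by 3.50 (edgeR adjusted p = 0.0069) and 2.09 (edgeR adjusted p = 2.31e-05). The part of feeding state in the values of the axis was not tested.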

How the data were processed

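Hepatocyte RNA-seq libraries (3 EV, 3 Sox4) were grouped by their labels. The authors aligned reads to GRCm39 with STAR (2.7.10b in the submitters' processing notes) and counted them with featureCounts 2.0.1, and the deposited values used here are raw counts per gene. A second deposited table is a signal, the same counts divided by the authors' DESeq2 size factors, equal to those recomputed from the counts, and it served in 1 alternative. The annotation release, strand setting and treatment of multi-mapping reads are not given in the sources used here, which leaves paralogs and overlapping genes uncertain.

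Counts were tested in R 4.3.3 with edgeR 4.0.16 (filterByExpr with a minimum count of 10 and total of 15, TMM, robust quasi-likelihood F test, no covariate). P-values were adjusted by Benjamini-Hochberg over 12691 genes at a threshold of 0.05, and the scripts were tested on simulated data. Levels are CPM on TMM-scaled libraries as mean ± SD (n = 3). The SE belongs to the difference in mean log2 CPM (prior count 2), and 95% intervals come from limma-trend (limma 3.58.1). Counts of 3 or fewer were the floor, at most 0.231 CPM, which covers counting error only. Total counts were 15090629 to 16964860, and replicates differed by more than counting noise (chi-square per degree of freedom 24.0 to 97.8). Ratios took a pseudocount of 0.5 and an exact permutation test, which cannot go below 0.1 with 3 against 3 libraries. Alternatives were other scalings, filters and tools (DESeq2 1.42.0, limma-voom), the replicate number as a block and leaving out each library. Gene length, overlap and shared 50-base stretches came from GENCODE M21 on GRCm38, and promoters from RefSeq on GRCm38.p6.

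The members and the lists were chosen with earlier results of these data known, and list counts are descriptions without a set test. Named were all members, from each list the 2 largest changes in each direction among called genes averaging 100 counts or more whose groups do not overlap, a set of SOCS, STAT, IGF and receptor genes whatever their values, and the 3 nearest profiles of Ghr, Igf1 and Socs2. The result for 1 gene of that set is not reported here.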

Additional observations from a re-analysis of the deposited data

How the results depend on the processing

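Over 14 alternatives each, 127 of 140 values of the 10 genes kept their direction and side of the threshold, 9 fell short of it, 2 newly passed and 2 changed sign. Between 6 and 7 members passed in every alternative. Both sign changes were of Stat5a, which leaving out 1 library moved between -0.096 (without Sox4 3) and 0.17 and to -0.044 without EV 3, and Igfbp3 ranged from -0.34 (without Sox4 3) to 1.33. With library size alone 8 adaptors passed, against 2, which the shift of all genes by 0.469 accompanies. Leaving out 1 library gave 1 to 3 adaptors and 3 to 6 of the JAK receptors (7 with all libraries), and it moved the log2 ratio of Cish to Socs2 between -1.18 and 0.21 and that of Igfals to Igf1 between -0.33 and 0.075. The replicate numbers share only a number: deviations of same-numbered libraries correlated at 0.338, -0.182 and 0.121, and 2 of 6 libraries correlated best with their own number. With the replicate block 7362 genes were called, against 6990, male-biased genes past the threshold were 10, against 17, Socs2 passed (log2 fold change 1.58, edgeR adjusted p = 0.0288), Cish did not (edgeR adjusted p = 0.192) and Egfr did not (edgeR adjusted p = 0.121). The fold of Igf1 and Igfals under library size alone stands beside their results. The cause of these differences was not tested. With 3 libraries a group, no ratio test could pass 0.05, and the spread of Socs2, Cish and Bcl6 limits what their values can show.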
